A study of Homo sapiens with 82 samples.

Results

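Nuclear receptor coregulators were examined at the RNA level in HT29 cells, an established colorectal adenocarcinoma line. The 9 genes comprise NCOR1, TBL1XR1 and HDAC3 of the NCOR corepressor complex, the corepressor NRIP1, the p160 coactivators NCOA1, NCOA2 and NCOA3, and the PGC1 coactivators PPARGC1A and PPARGC1B. They were taken by symbol from the gene count tables of 24 and 48 h, where each had 1 row among 51838 genes. Cells received the vehicle DMSO, the LXR agonist GW3965, a second LXR agonist, T0901317, or the PPARG agonist rosiglitazone, each drug at 10 μM in DMSO. Drug and vehicle cells alike had been kept in phenol-red-free medium with charcoal/dextran-treated serum before treatment, and no knockout or transgene was involved. Each of the 8 groups, made of 4 treatments at 24 h or 48 h, had 4 RNA-seq libraries. Treatments were made in quadruplicate, and the sources do not say whether these were independent cultures, so the tests measure the spread between these libraries. In a whole-culture extract, fewer cells of a kind and less RNA per cell cannot be told apart.

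LXR and PPARG bind DNA as partners of RXR and change shape when an agonist binds. Without ligand, such receptors can hold the NCOR complex, in which NCOR1 is the scaffold, TBL1XR1 helps exchange corepressors for coactivators, and HDAC3 removes acetyl groups from histones. With ligand, the receptor surface binds LXXLL motifs of coactivators instead. The p160 proteins bring in histone acetyltransferases, and the PGC1 proteins link receptors to genes of mitochondrial energy metabolism. NRIP1 also uses LXXLL motifs but represses, and it is known for holding back energy expenditure in fat and muscle.

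Promoter windows were available for 8 of the 9 genes, 15 windows in all, and not for NCOA2. The sequences of PPARGC1B and NRIP1 are shown, since PPARGC1B had the largest change of the genes tested and NRIP1 went different ways with different drugs. Each holds the 250 bases before an annotated start in RefSeq, build GRCh38.p14, which is not the hg19 build named in the submitters' processing notes. Capitals mark the letters CCAAT or GGGCGG on either strand. The PPARGC1B window is chr5:149771690-149771939 on the plus strand, the only one listed for it. It lies inside the gene, which spans 149730310 to 149857959 in that build, so it precedes an internal start. The sequence before the upstream end of PPARGC1B was not searched. The NRIP1 window is chr21:15065937-15066186 on the minus strand, the most upstream of 3.
PPARGC1B: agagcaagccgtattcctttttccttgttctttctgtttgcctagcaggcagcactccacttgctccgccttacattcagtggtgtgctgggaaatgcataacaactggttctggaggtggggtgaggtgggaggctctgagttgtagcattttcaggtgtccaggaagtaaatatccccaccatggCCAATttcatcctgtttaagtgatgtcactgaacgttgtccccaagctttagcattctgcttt
NRIP1: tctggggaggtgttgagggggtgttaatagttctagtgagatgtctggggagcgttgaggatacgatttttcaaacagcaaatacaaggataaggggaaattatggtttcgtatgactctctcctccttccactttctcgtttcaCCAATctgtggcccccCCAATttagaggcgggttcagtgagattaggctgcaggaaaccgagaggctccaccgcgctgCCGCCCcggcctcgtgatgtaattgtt
Motifs were searched on both strands of the 250 bases. CCAAT, bound by NFY, was present in 3 of the 15 windows, against 32.04% of the 34943 windows of that length in the whole table. GGGCGG, the core of the SP1 box, was present in 8 of the 15, against 42.5% of all windows. AGGTCA, the hexamer that nuclear receptors read in pairs, and TGACTCA, the AP1 site, were present in 0 of the 15, against 12.1% and 4.22% of all windows. These motifs do not overlap in the printed windows, and the counts describe letters in short windows only.

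Library totals ran from 21044798 to 51332656 counts, with the smallest in T0901317 at 24 h, replicate 2, and no 2 libraries were identical. All 10 markers of colon epithelium had a mean above 1 CPM, the count scaled to a common library total, with a summed level of 14662 to 22470 CPM per library. Of 11 markers of immune, fibroblast, endothelial, liver and fat cells, 2 passed that level, and their summed level was 11.3 to 24.4 CPM. The sterol exporter ABCA1, a direct LXR target, had a mean of 4.65 CPM with DMSO, 114 CPM with GW3965 and 60.9 CPM with T0901317 at 24 h. ANGPTL4, a direct PPARG target, had 0.594 CPM with DMSO and 19.9 CPM with rosiglitazone at 24 h.

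Among the 8 of these 9 genes that were tested, none was called with either LXR agonist at 24 h, and several were called at 48 h. With rosiglitazone 4 were called at each hour. The share of all genes called was also low for the LXR agonists at 24 h and higher at 48 h. By 48 h, both LXR agonists had lowered NCOR1, NRIP1, NCOA1 and NCOA3, by 18.9% to 37.2%, while PPARGC1B was raised about 2-fold by all 3 drugs. Rosiglitazone lowered NCOA1 and NCOA2 at both hours, and its NCOR1 and NCOA3 libraries overlapped those of DMSO. The threshold for a call was an adjusted p under 0.01 (Benjamini-Hochberg over all genes, edgeR's quasi-likelihood test). Of the 9 genes 8 had enough counts for the test, all but PPARGC1A.

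At 24 h, 0 of the 8 genes were called with GW3965, against 2.73% of all 21781 genes tested (1.86% higher and 0.868% lower). Of the 8, 3 had an unadjusted p under 0.05, and 0 were called by DESeq2. T0901317 likewise had 0 of 8 called, against 1.45% of all genes (1.33% higher and 0.119% lower), with 0 at an unadjusted p under 0.05 and 0 by DESeq2. Rosiglitazone raised 2 and lowered 2 of the 8, against 5.81% and 6.52% of all genes, or 12.3% called in all. At 48 h, GW3965 raised 1 and lowered 6, against 16.1% and 17.5% of 22470 genes, or 33.6% in all. T0901317 raised 1 and lowered 4, against 14% and 16.1%, or 30% in all. Rosiglitazone raised 2 and lowered 2, against 12.3% and 13.1%, or 25.5% in all. At 48 h, the 8 genes had a median log2 change of -0.32 for GW3965, -0.22 for T0901317 and 0.06 for rosiglitazone, beside 0.00, 0.01 and -0.01 over all genes tested. Their medians with the sign dropped were 0.39, 0.32 and 0.22, beside 0.32, 0.29 and 0.26 over all genes. The shares over all genes include genes of lower level and were not matched to the level of the 8.

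Most of these changes were small. A called change of at least 1.5-fold was found with rosiglitazone at 24 h in 1 of 8, PPARGC1B, against 4.94% of all genes. At 48 h it was found with GW3965 in 3 of 8, NRIP1, NCOA3 and PPARGC1B, against 16.1%, and in PPARGC1B alone with T0901317, against 14.3%, and with rosiglitazone, against 12.2%. At least 2-fold, the calls were 0 of 8 with rosiglitazone at 24 h, against 2.18%, and at 48 h PPARGC1B with GW3965, T0901317 and rosiglitazone, against 5.77%, 5.4% and 5.86% of all genes. The drugs of an hour share 4 DMSO libraries, so these comparisons are not independent of each other.

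**Figure D1:**
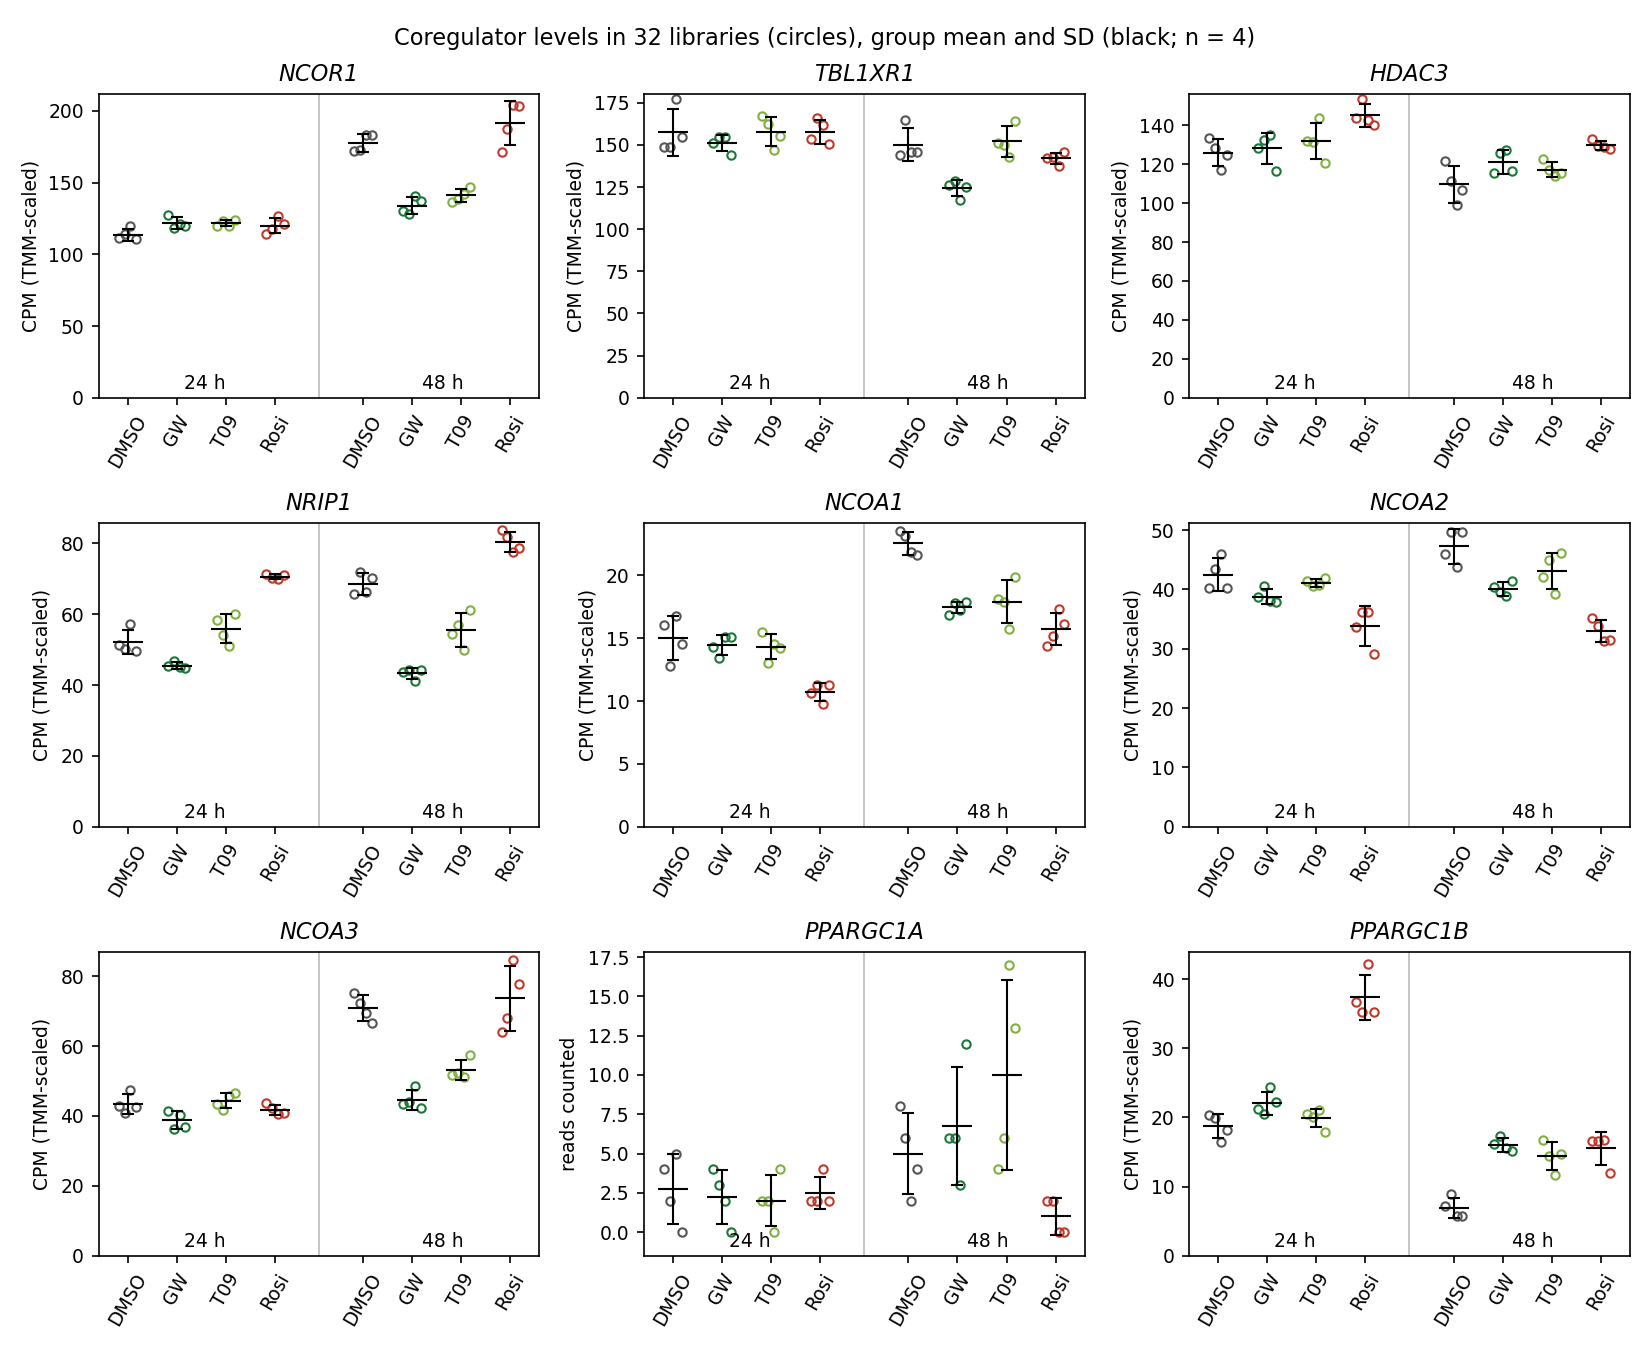
Level of each coregulator in 32 libraries, in CPM scaled by the TMM method (PPARGC1A as reads counted), with GW for GW3965, T09 for T0901317 and Rosi for rosiglitazone. Circles are libraries and black marks the mean and SD of 4. PPARGC1B was highest with rosiglitazone at 24 h and lowest with DMSO at 48 h, and PPARGC1A stayed at 0 to 17 reads.

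**Figure D2:**
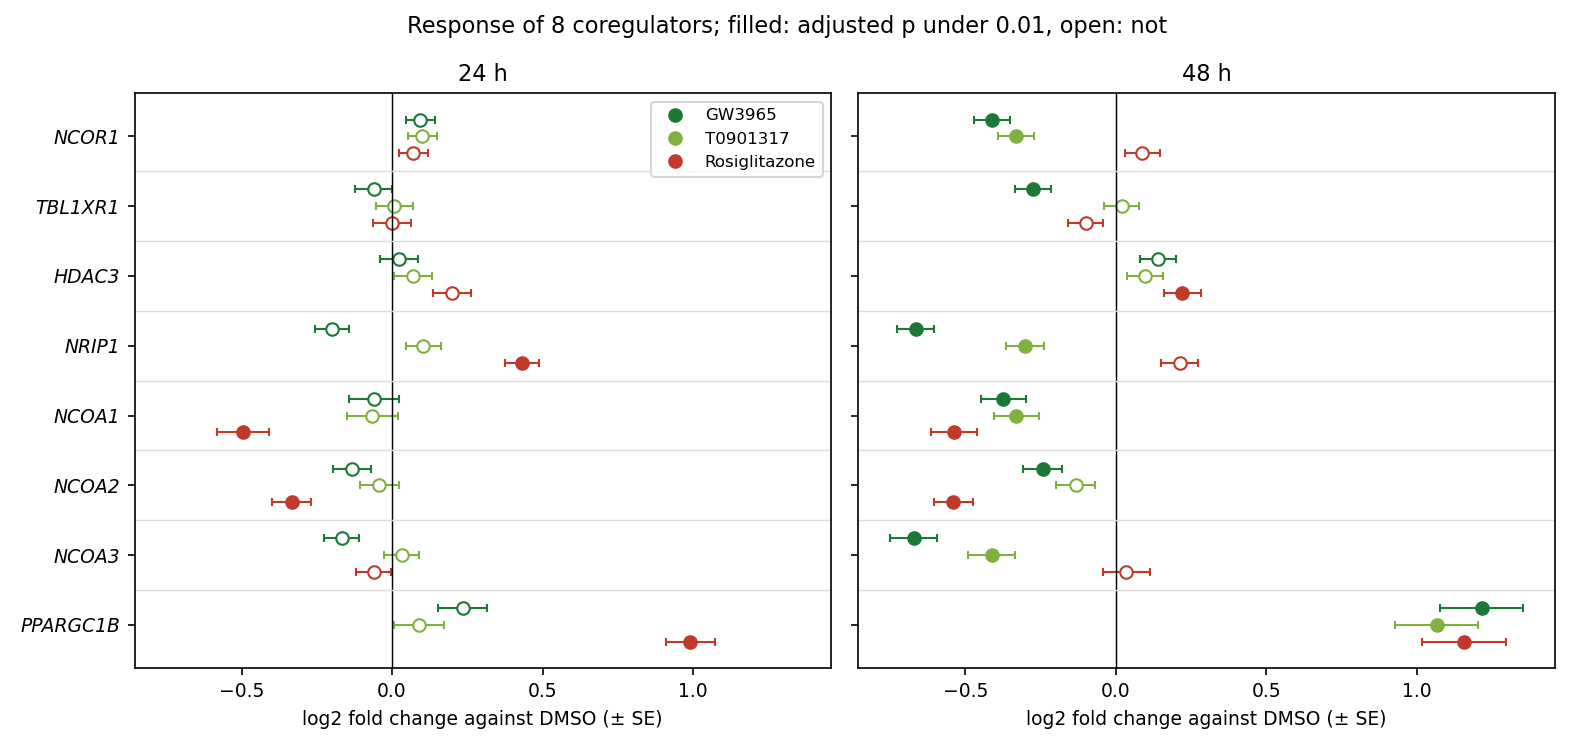
Log2 fold change against DMSO of the same hour with its standard error, for 8 coregulators at 24 h (left) and 48 h (right). Filled points passed an adjusted p under 0.01. At 24 h only rosiglitazone has filled points, and at 48 h the points of PPARGC1B lie above 1 for all 3 drugs.

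NCOR1 was the member of the NCOR complex with the clearest response. In DMSO libraries of 48 h it stood at 172, 173, 183 and 183 CPM. With GW3965 it stood at 131, 128, 140 and 137 CPM, and with T0901317 at 137, 139, 142 and 147 CPM, so that all 8 LXR libraries were below all DMSO libraries. The log2 change was -0.41 ± 0.059 (SE) with GW3965 (adjusted p = 1.2e-05), and for T0901317 it was -0.33 ± 0.059 (adjusted p = 0.00015). Rosiglitazone libraries of 48 h ran from 171 to 204 CPM and overlapped DMSO, with a log2 change of 0.09 ± 0.059 (adjusted p = 0.26). At 24 h, the group means of NCOR1 lay between 114 and 122 CPM, and no drug passed the test. T0901317 libraries of 24 h, at 119.72 to 123.94 CPM, lay just above the DMSO libraries, at 110.47 to 119.64 CPM.

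TBL1XR1 was called with GW3965 at 48 h and in no other comparison with DMSO. At 48 h, it had 126, 129, 118 and 125 CPM with GW3965, below the DMSO libraries at 144, 165, 146 and 146 CPM. The log2 change was -0.28 ± 0.059 (adjusted p = 0.00069). With T0901317 the libraries ran from 143 to 164 CPM and overlapped DMSO, with a log2 change of 0.02 ± 0.058 (adjusted p = 0.82). The difference between the LXR agonists was itself past the threshold, with GW3965 lower by -0.29 ± 0.058 on the log2 scale (adjusted p = 0.0019). Without T0901317 replicate 4, the highest of its group, the difference was -0.24 and its adjusted p 0.0104. Rosiglitazone gave -0.10 at 48 h (adjusted p = 0.20), but -0.28 (adjusted p = 0.0010) with libraries scaled by their totals.

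HDAC3, the deacetylase of the complex, varied little, and its group means ran from 110 CPM in DMSO at 48 h to 145 CPM with rosiglitazone at 24 h, with every pair of neighbours in that order overlapping. Rosiglitazone libraries of 48 h stood at 133, 129, 129 and 128 CPM, above the DMSO libraries at 122, 111, 99.2 and 106 CPM. The log2 change was 0.22 ± 0.060 (adjusted p = 0.0066), a small rise that did not withstand the loss of single libraries. Without DMSO replicate 2, 3 or 4, or without any 1 of the rosiglitazone replicates 1 to 4, the change was 0.18 to 0.24 and the adjusted p 0.011 to 0.027. With libraries scaled by their totals alone it was 0.04 (adjusted p = 0.59), while the median of all genes in that comparison moved to -0.19. At 24 h, rosiglitazone gave 0.20 ± 0.064 (adjusted p = 0.031).

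NRIP1, a corepressor that binds liganded receptors, was higher than DMSO with rosiglitazone and, at 48 h, lower with both LXR agonists. In DMSO libraries it stood at 51.4, 50.3, 57.2 and 49.6 CPM at 24 h. Rosiglitazone libraries of 24 h were tightly grouped above them, at 71.3, 70.1, 69.9 and 71.1 CPM, a log2 change of 0.43 ± 0.057 (adjusted p = 1.5e-05). With GW3965 at 24 h, NRIP1 had 45.4, 46.8, 45.0 and 44.9 CPM, all below DMSO, yet the change of -0.20 ± 0.057 missed the threshold (adjusted p = 0.051). With T0901317 at 24 h it had 58.4, 54.2, 51.1 and 59.98 CPM, which overlapped DMSO, and the change of 0.10 ± 0.057 had the opposite sign and missed the threshold (adjusted p = 0.50).

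At 48 h, NRIP1 stood at 65.7, 71.9, 66.2 and 70.1 CPM with DMSO. GW3965 libraries had 43.7, 44.1, 41.1 and 44.4 CPM, a log2 change of -0.67 ± 0.063 (adjusted p = 6.3e-08). T0901317 libraries had 54.3, 56.8, 49.8 and 61.2 CPM, a log2 change of -0.30 ± 0.062 (adjusted p = 0.00060). Both LXR agonist groups lay wholly below DMSO, and GW3965 wholly below T0901317. Rosiglitazone libraries, at 83.7, 81.8, 77.4 and 78.8 CPM, lay wholly above DMSO, with a log2 change of 0.21 ± 0.062 and an adjusted p of 0.011. That value was past the threshold in 4 of its alternatives, with DESeq2, RLE scaling, a replicate block or all 32 libraries fitted together, at log2 changes of 0.21 to 0.23. With libraries scaled by their totals alone the log2 change of NRIP1 was 0.03 (adjusted p = 0.72).

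The p160 coactivators NCOA1, NCOA2 and NCOA3, which recruit acetyltransferases to liganded receptors, did not respond as a group. NCOA1 was lowered by all 3 drugs at 48 h and by rosiglitazone at 24 h. It had 16.04, 12.8, 16.7 and 14.5 CPM with DMSO at 24 h, against 10.6, 11.3, 9.73 and 11.3 CPM with rosiglitazone, a log2 change of -0.49 ± 0.086 (adjusted p = 0.00031). At 48 h, DMSO libraries had 23.5, 23.1, 21.9 and 21.6 CPM. The ranges at 48 h were 16.9 to 17.9 CPM with GW3965, 15.7 to 19.9 CPM with T0901317 and 14.4 to 17.3 CPM with rosiglitazone, all under DMSO. The log2 changes were -0.37 ± 0.075 (adjusted p = 0.00041), -0.33 ± 0.075 (adjusted p = 0.0014) and -0.54 ± 0.076 (adjusted p = 1.6e-05).

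NCOA2, a p160 protein also active in fat cells and liver, was lowered mainly by rosiglitazone. At 24 h it had 40.2, 43.5, 46.0 and 40.2 CPM with DMSO and 33.8, 36.2, 36.2 and 29.2 CPM with rosiglitazone, a log2 change of -0.33 ± 0.065 (adjusted p = 0.00093). At 48 h it had 45.9, 49.8, 43.8 and 49.7 CPM with DMSO and 35.2, 33.9, 31.4 and 31.4 CPM with rosiglitazone, a log2 change of -0.54 ± 0.065 (adjusted p = 2.4e-06). GW3965 libraries of 48 h ran from 38.8 to 41.4 CPM, also below DMSO, and the log2 change of -0.24 ± 0.065 passed the test (adjusted p = 0.0044). Without DMSO replicate 2 or 4, or GW3965 replicate 1, 2 or 3, it was -0.25 to -0.22 with an adjusted p of 0.011 to 0.020. T0901317 gave -0.13 ± 0.064 at 48 h (adjusted p = 0.11).

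NCOA3, the p160 member amplified in breast cancer, was lowered by the LXR agonists at 48 h. DMSO libraries of 48 h had 75.1, 72.3, 69.3 and 66.6 CPM. GW3965 libraries had 43.4, 44.0, 48.7 and 42.4 CPM, a log2 change of -0.67 ± 0.079 (adjusted p = 1.0e-06). T0901317 libraries had 51.8, 52.3, 51.1 and 57.5 CPM, a log2 change of -0.41 ± 0.078 (adjusted p = 0.00026). Neither group overlapped DMSO. Rosiglitazone libraries of 48 h were spread from 64.0 to 84.6 CPM around DMSO, with a log2 change of 0.04 ± 0.078 (adjusted p = 0.76). At 24 h no drug passed the test, and GW3965 gave -0.17 ± 0.059 (adjusted p = 0.13).

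PPARGC1B encodes PGC1-beta, a coactivator of mitochondrial and lipid synthesis genes, and among the 8 genes with enough counts it varied most between groups, with a mean 5.42 times as high with rosiglitazone at 24 h as with DMSO at 48 h. DMSO libraries of 24 h had 20.3, 19.9, 16.5 and 18.1 CPM. Rosiglitazone libraries had 36.7, 35.3, 42.2 and 35.3 CPM, a log2 change of 0.99 ± 0.081 (adjusted p = 3.3e-08). GW3965 libraries of 24 h had 21.2, 20.5, 24.4 and 22.2 CPM, just above DMSO, and the change of 0.23 ± 0.082 missed the threshold (adjusted p = 0.13).

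At 48 h, PPARGC1B had fallen to 7.20, 8.88, 5.74 and 5.76 CPM with DMSO. All 12 drug libraries were higher, at 15.1 to 17.3 CPM with GW3965, 11.7 to 16.7 CPM with T0901317 and 12.01 to 16.7 CPM with rosiglitazone. The log2 changes were 1.21 ± 0.14 (adjusted p = 7.0e-07), 1.07 ± 0.14 (adjusted p = 3.9e-06) and 1.16 ± 0.14 (adjusted p = 2.3e-06). The change was just under 2-fold for T0901317 without DMSO replicate 3 or 4 or T0901317 replicate 1, at 0.98 to 0.99, and for rosiglitazone with libraries scaled by their totals, at 0.97. The 3 drug groups overlapped each other. In each of them the highest library passed the lowest DMSO library of 24 h, while all 3 means were below the DMSO mean of 24 h, 18.7 CPM.

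PPARGC1A, the founding PGC1 gene, was barely detected. It had 129 counts over all 32 libraries, 0 to 17 per library and 0 in 5 of them, and did not pass the filter on low counts. At 48 h, 4 libraries together gave 20 counts for DMSO, 27 for GW3965, 40 for T0901317 and 4 for rosiglitazone. In CPM of the raw totals, that was 0.145 (exact Poisson 95% interval 0.0884 to 0.224) with DMSO and 0.0266 (0.00726 to 0.0682) with rosiglitazone. The intervals cover counting error only and leave out the spread between libraries. With the filter removed, the test gave rosiglitazone a log2 change of -2.16 against DMSO at 48 h, with an adjusted p of 0.060. At 24 h the sums were 8 to 11 counts in all 4 groups.

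The vehicle cells themselves differed between the hours, and each drug response was measured against the DMSO of its own hour. In a fit of all 32 libraries, DMSO at 48 h was higher than DMSO at 24 h in NCOR1 by 0.64 ± 0.052, in NRIP1 by 0.39 ± 0.058, in NCOA1 by 0.58 ± 0.078 and in NCOA3 by 0.71 ± 0.071 on the log2 scale. PPARGC1B was lower, at -1.44 ± 0.12, and HDAC3 lower, at -0.20 ± 0.060 (adjusted p = 0.0069). In all, 6 of the 8 genes were called, against 38.6% of 23140 genes, with adjusted p of 9.3e-07 or less for all but HDAC3. The HDAC3 groups overlapped. Its value was -0.21 to -0.15, with an adjusted p of 0.012 to 0.054, without DMSO replicate 1, 2 or 4 of 24 h or replicate 2, 3 or 4 of 48 h. Over all 13 alternatives the HDAC3 call was kept in 4, with an adjusted p of up to 0.080. The hours were deposited as separate tables, so hour and series of libraries cannot be told apart.

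In the LXR agonist groups these genes differed less between the hours. The mean of NCOR1 was 1.56 times as high at 48 h as at 24 h with DMSO and 1.60 times with rosiglitazone, but 1.10 times with GW3965 and 1.16 times with T0901317. The mean of NCOA3 was 1.63 times as high at 48 h with DMSO and 1.76 times with rosiglitazone, but 1.15 and 1.20 times with the LXR agonists. The mean of NRIP1 was 1.31 times as high with DMSO, 0.952 times with GW3965, 0.993 times with T0901317 and 1.14 times with rosiglitazone, which here lay below DMSO. At 48 h, both LXR groups were thus still above DMSO of 24 h in NCOR1, while below DMSO of 48 h.

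**Figure D3:**
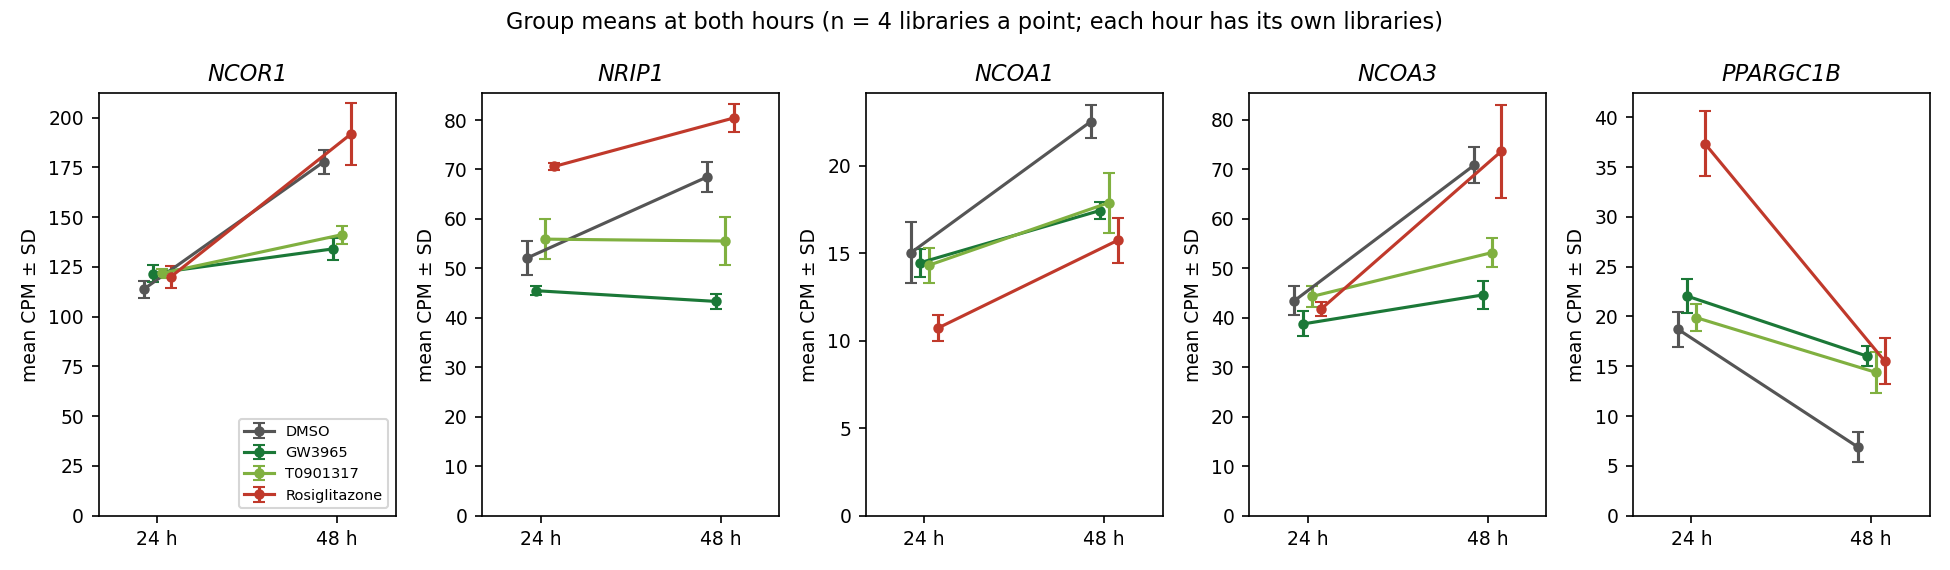
Mean CPM with SD (n = 4 libraries) of 5 coregulators at 24 and 48 h, for DMSO (grey), GW3965 (dark green), T0901317 (light green) and rosiglitazone (red). In NCOR1 and NCOA3 the DMSO and rosiglitazone lines climb together and the LXR agonist lines stay flatter. In PPARGC1B all lines fall and DMSO ends lowest.

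The change in the drug response from 24 to 48 h was tested as an interaction. For GW3965 it was called in 4 of 8 genes, against 21.6% of all genes: NCOR1 at -0.50 ± 0.073, NRIP1 at -0.46 ± 0.082, NCOA3 at -0.50 ± 0.10 and PPARGC1B at 0.98 ± 0.16. For T0901317 it was called in the same 4 genes, against 17.4%, at -0.43 ± 0.074, -0.40 ± 0.082, -0.44 ± 0.10 and 0.98 ± 0.16. Adjusted p ran from 2.6e-06 in NCOR1 with GW3965 to 0.00098 in NCOA3 with T0901317. For rosiglitazone 0 of 8 were called, against 2.45% of all genes, with 2 at an unadjusted p under 0.05 and 0 by DESeq2. The rosiglitazone response of PPARGC1B differed by 0.18 between the hours (95% interval -0.15 to 0.51).

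Direct comparisons between drugs at the same dose and hour showed where the LXR agonists parted. At 24 h GW3965 was lower than T0901317 in NRIP1 by -0.30 ± 0.057 (adjusted p = 0.0060), 1 of 8 genes against 0.79% of all genes. That call was lost without any 1 of GW3965 replicates 2, 3 and 4 or T0901317 replicates 1, 2 and 4, with values of -0.32 to -0.27 and adjusted p of 0.014 to 0.032. It was also lost with a replicate block (adjusted p = 0.020). At 48 h 2 of 8 genes were called, TBL1XR1, as given above, and NRIP1 at -0.36 ± 0.063 (adjusted p = 0.00063), against 8.36%. NCOA3 was lower with GW3965 by -0.26 ± 0.078 but missed the threshold (adjusted p = 0.028). For NCOR1 the difference was -0.08 (95% interval -0.20 to 0.04), for NCOA1 -0.04 (-0.20 to 0.11) and for PPARGC1B 0.15 (-0.12 to 0.42), so that differences of these sizes remain possible.

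Rosiglitazone was set against GW3965 as the agonist of the other receptor. At 24 h 3 of 8 genes were called, against 10.7% of all genes, with rosiglitazone higher in NRIP1 by 0.63 ± 0.057 and in PPARGC1B by 0.76 ± 0.080 and lower in NCOA1, at -0.43 ± 0.085. At 48 h 4 of 8 were called, against 45% of all genes. Rosiglitazone was higher in NCOR1 by 0.50 ± 0.059, in NRIP1 by 0.88 ± 0.063 and in NCOA3 by 0.71 ± 0.079, and lower in NCOA2, at -0.30 ± 0.065. Adjusted p was 0.0011 or less throughout. For PPARGC1B at 48 h the difference was -0.06 (95% interval -0.33 to 0.21; adjusted p = 0.72).

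The other coregulators of the lists, 23 corepressors and 30 coactivators with enough counts, gave a wider view of the same machinery. These lists were drawn up with earlier results of these data known, so the shares called describe the lists and test nothing about them. At 24 h, 3 of the 53 rose and 0 fell with GW3965, 1 rose and 0 fell with T0901317, and 7 rose and 3 fell with rosiglitazone. These are 5.66%, 1.89% and 18.9% of the 53, beside 2.73%, 1.45% and 12.3% of all genes. At 48 h, 8 rose and 22 fell with GW3965, 4 rose and 25 fell with T0901317, and 17 rose and 5 fell with rosiglitazone. These are 56.6%, 54.7% and 41.5% of the 53, beside 33.6%, 30% and 25.5% of all genes. Their median log2 changes at 48 h were -0.14, -0.23 and 0.13, beside 0.00, 0.01 and -0.01 over all genes. With the sign dropped, the medians at 48 h were 0.28, 0.27 and 0.21, beside 0.32, 0.29 and 0.26 over all genes. At 24 h they were 0.062, 0.062 and 0.14, beside 0.12, 0.11 and 0.18. The higher share called did not go with a larger median size of change, though genes of like level were not compared. Of the 30 coactivators alone, 15 fell and 3 rose with GW3965 and 18 fell and 0 rose with T0901317 at 48 h. The 23 corepressors were mixed, with 7 lower and 5 higher with GW3965 and 7 lower and 4 higher with T0901317. Over all genes, 17.5% fell and 16.1% rose with GW3965, and 16.1% fell and 14% rose with T0901317.

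**Figure D4:**
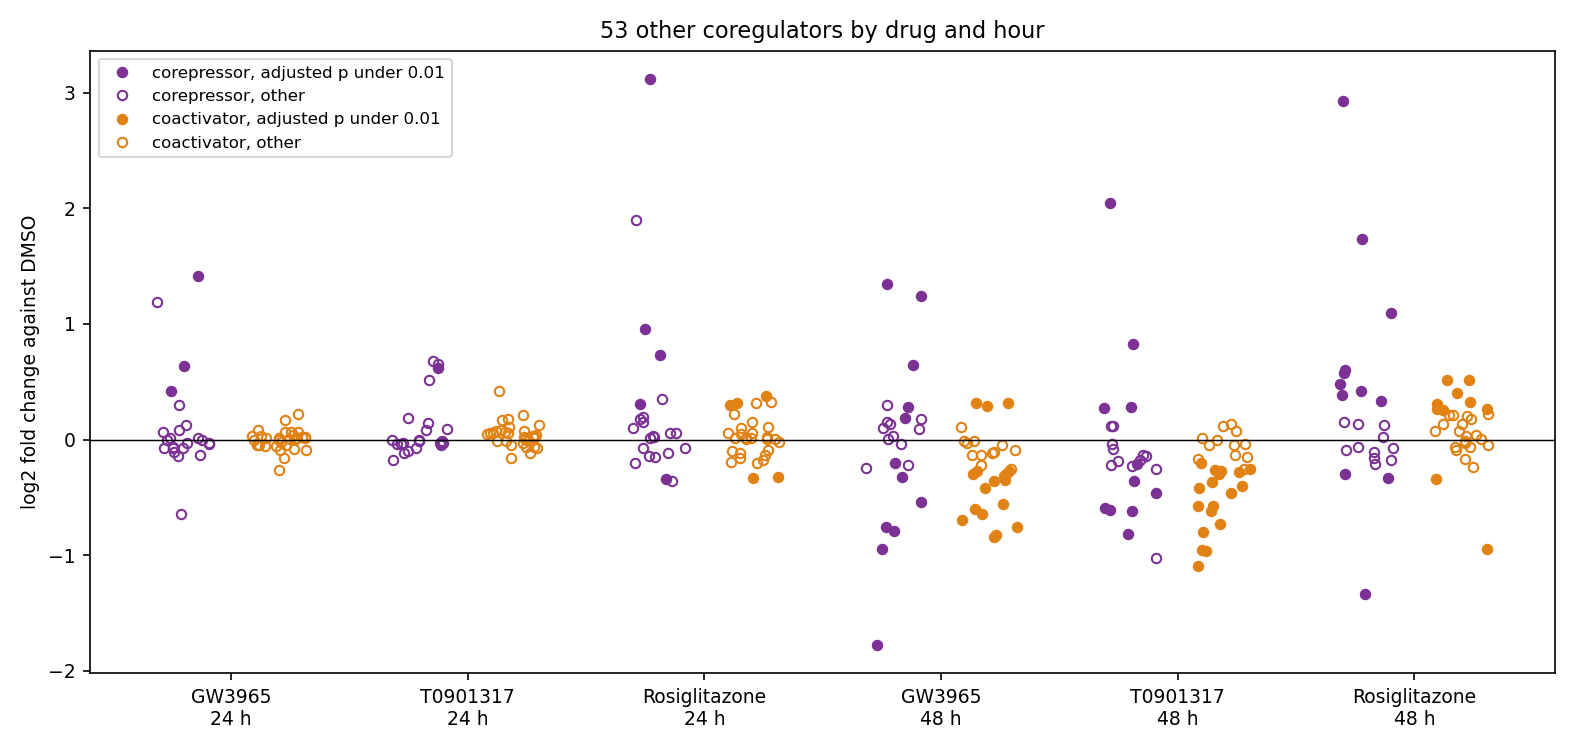
Log2 fold change against DMSO of 53 other coregulators for each drug and hour, with 1 point per gene, corepressors in purple and coactivators in orange. Filled points passed an adjusted p under 0.01. At 48 h most filled coactivators lie below 0 with the LXR agonists and above 0 with rosiglitazone.

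Among coactivators lowered at least 1.5-fold at 48 h, the acetyltransferase CREBBP and the Mediator subunit MED12, with NCOA5, led with T0901317, at -1.09 ± 0.068, -0.95 ± 0.081 and -0.96 ± 0.062. With GW3965 NCOA7 was lowered by -0.85 ± 0.078 and the demethylase KDM6A by -0.83 ± 0.088. CREBBP and NCOA5 were lower with GW3965 too, with means of 114 and 36.6 CPM against 191 and 57.0 CPM with DMSO. NCOA7 likewise had a mean of 35.3 CPM with T0901317 against 52.7 CPM with DMSO. Of the corepressor list, the deacetylase SIRT1 was lowered by both LXR agonists, at -0.95 ± 0.11 with GW3965 and -0.82 ± 0.11 with T0901317. HDAC9, of the same list, was lower with GW3965, at -1.78 ± 0.44 (adjusted p = 0.0026), on 28 counts in 4 libraries, 1 of them at 0. With rosiglitazone at 48 h HDAC9 was higher, at 1.74 ± 0.34, and the acetyltransferase KAT2B was lower, at -0.95 ± 0.17.

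A few corepressors rose with the drugs. NR0B2, an orphan receptor that represses other receptors, rose at 48 h with GW3965 by 1.35 ± 0.16 and with T0901317 by 2.04 ± 0.16. It fell at 48 h with rosiglitazone, at -1.34 ± 0.20, on 131 counts in 4 libraries. Its mean at 24 h was 2.35 CPM with GW3965 and 5.76 CPM with T0901317, against 3.68 CPM with DMSO, and neither drug was called. HR, a histone demethylase and corepressor, rose with rosiglitazone by 3.12 ± 0.17 at 24 h and 2.92 ± 0.14 at 48 h and with GW3965 by 1.41 ± 0.17 and 1.25 ± 0.14. BCL6 rose at 24 h with all 3 drugs, by 0.64 ± 0.068, 0.62 ± 0.069 and 0.73 ± 0.068, and at 48 h with GW3965 by 0.64 ± 0.11 and with T0901317 by 0.82 ± 0.11. TLE1, a Groucho family corepressor, rose with rosiglitazone by 0.96 ± 0.088 at 24 h and 1.10 ± 0.081 at 48 h. All the log2 changes given here for these 4 genes had adjusted p of 6.2e-05 or less.

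Further partners of the members were followed as well. GPS2 of the NCOR complex rose with rosiglitazone at 48 h by 0.34 ± 0.061 (adjusted p = 0.00022) and fell with T0901317, at -0.21 ± 0.061 (adjusted p = 0.0095). TBL1X, the paralogue of TBL1XR1, rose at 24 h with GW3965 by 0.42 ± 0.078 and with rosiglitazone by 0.31 ± 0.079, and fell at 48 h with T0901317, at -0.46 ± 0.085. PPRC1, the remaining PGC1 family gene, fell at 48 h with GW3965, at -0.36 ± 0.080, and with T0901317, at -0.73 ± 0.080, and rose with rosiglitazone by 0.51 ± 0.079, where PPARGC1B rose with all 3.

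For members called with at least a 1.5-fold change, the genes of most similar pattern were listed over the 32 libraries, from log2 CPM less the DMSO mean of the hour, among 14500 genes. These points share their DMSO reference and fall into 8 groups, so the coefficients describe the group pattern. NRIP1 was closest to LOXL4 (r = 0.933), MTAP (0.928) and RASEF (0.919). NCOA3 was closest to F2RL1 (0.961), CDC73 (0.952) and HIVEP2 (0.946). PPARGC1B was closest to UCP2 (0.935), a mitochondrial carrier, SERINC2 (0.932) and HPDL (0.928).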

How the data were processed

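HT29 RNA was sequenced by the authors from both ends of Nextera libraries of mRNA, and the deposited values are raw counts, whole numbers per Ensembl gene. TopHat, Cufflinks and hg19 are named in the submitters' processing notes, while a counting program or strand setting was not given in the sources used here. A further 34 deposited peak lists of ChIP-seq were not used here. The authors compared genes with DESeq.

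Libraries were grouped by label. The 16 libraries of each hour were fitted together in edgeR 4.0.16 (R 4.3.3) after filterByExpr (minimum count 10) and TMM scaling, with quasi-likelihood tests and Benjamini-Hochberg adjustment over all genes. All 32 libraries were fitted for the interaction and the comparison of the hours. Standard errors came from the fold change and F statistic. CPM used the TMM factors of 32 libraries. Precision was set by 21044798 to 51332656 counts per library and 4 libraries per group. Scripts were tested on simulated data. Alternatives were DESeq2 1.42.0, RLE and library size scaling, no filter, a replicate block, 2 groups per fit, all libraries in 1 fit, fold limits of 1.5 and 2, and each library left out.

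The 9 members and the coregulator lists, drawn up from known function, were chosen with earlier results of these data known. PELP1 of the coactivator list and PECAM1 of the marker list were not analysed here. Other coregulators are named where past an adjusted p of 0.01 with at least 1.5-fold change, at most 4 per comparison and direction, plus TBL1X, GPS2 and PPRC1, with 1 item not reported here. The genes of similar pattern are the 3 with the highest Pearson correlation. Figures were drawn with matplotlib 3.10.9 in Python 3.11.15.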

Additional observations from a re-analysis of the deposited data

Results flagged for a closer look

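Single libraries stood apart in 3 of the 72 gene and group combinations checked with Dixon's test, which chance alone would flag about 1 time in 20. TBL1XR1 had 165 CPM in DMSO at 48 h, replicate 2, against 144 to 146 CPM in the other 3 libraries. PPARGC1B had 12.01 CPM with rosiglitazone at 48 h, replicate 4, against 16.6 to 16.7 CPM in the other 3. PPARGC1A had 0.126 CPM with rosiglitazone at 24 h, replicate 3, against 0.0519 to 0.0610 CPM. These were 4 reads against 2 in each of the others, so the gap rests on very few reads.

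The drug response differed between 48 and 24 h, by the interaction test, in 4 genes for each LXR agonist. For GW3965 the log2 difference was -0.50 in NCOR1, -0.46 in NRIP1, -0.50 in NCOA3 and 0.98 in PPARGC1B. For T0901317 it was -0.43 in NCOR1, -0.40 in NRIP1, -0.44 in NCOA3 and 0.98 in PPARGC1B. The DMSO group moved between the hours by 0.64, 0.39, 0.71 and -1.44 in NCOR1, NRIP1, NCOA3 and PPARGC1B, and its part in these differences was not tested apart from the drugs.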

How the results depend on the processing

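Of the 44 called values of members, 44 remained called with RLE scaling and with DESeq2, 41 with library size scaling, 40 with no filter, 42 with the replicate block, 19 of 20 with 2 groups in the fit, 20 of 20 with all 32 libraries in 1 fit and 391 of 416 with 1 library left out. None of the 44 changed sign, while 21 values that were not called did, all with a main log2 change of at most 0.088. With a fold limit of 1.5 or 2, the members called at 48 h went from 7 to 3 or 1 with GW3965, from 5 to 1 or 1 with T0901317 and from 4 to 1 or 1 with rosiglitazone, and those at 24 h with rosiglitazone from 4 to 1 or 0. The other coregulators, 53 tested, went to 13 or 3 from 30, to 12 or 2 from 29 and to 6 or 4 from 22 at 48 h, and to 3 or 1 from 10 with rosiglitazone at 24 h. The shares of all genes at these limits were 16.1% or 5.77%, 14.3% or 5.4% and 12.2% or 5.86% at 48 h. With rosiglitazone at 24 h they were 4.94% or 2.18%. At 24 h and a limit of 2 the other coregulators went to 1 from 3 with GW3965 and to 0 from 1 with T0901317, whose count was 2 with 2 groups in the fit, DESeq2 or no filter. The 1 member called between GW3965 and T0901317 at 24 h was 0 with library size scaling, no filter or the replicate block and 0 to 1 without single libraries, and the 2 at 48 h were 1 to 2; the cause was not tested.

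Library size scaling moved the median of all genes to -0.11 at 24 h and -0.19 at 48 h with rosiglitazone, to -0.16 for rosiglitazone against GW3965 at 48 h and to 0.11 for the T0901317 interaction, so directions in these comparisons are relative to the TMM centre. With it, the rosiglitazone calls went from 1266 higher and 1421 lower to 743 and 2209 at 24 h, and from 2771 and 2949 to 1374 and 5459 at 48 h. The split went from 406 and 189 to 334 and 269 for GW3965 at 24 h, from 1131 and 747 to 733 and 1566 for GW3965 against T0901317 at 48 h, and from 5034 and 5076 to 3674 and 6546 for rosiglitazone against GW3965 at 48 h. For the interaction it went from 320 and 246 to 183 and 442 with rosiglitazone and from 1733 and 2303 to 2251 and 1793 with T0901317. Same-numbered libraries correlated at -0.049 to 0.076 over 24 pairs, and 8 of the 24 correlated best with their own number, so the numbers were read as names. The replicate block changed the DMSO count from 6 to 5 members and the rosiglitazone count at 48 h from 4 to 5, and the DMSO calls over all genes from 8934 to 5965. With the block coded within each hour, the DMSO contrast compared the fitted levels of replicate 1 and not the group means. The DMSO values with the block, here and among the called values above, thus do not show how that comparison depends on blocking.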

Other observations

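The other coregulators also differed between the DMSO groups of 24 and 48 h. Of 53 tested, 21 were higher and 13 lower at 48 h, 64.2% against 38.6% of all genes, and hour and series of libraries cannot be told apart. With the sign dropped, their median log2 change was 0.33, beside 0.36 over all genes. The largest rises on the log2 scale were those of HDAC9, at 1.69 (adjusted p = 0.0080, on few counts), NCOA7, at 1.57 ± 0.079 (adjusted p = 3.8e-17), SIRT1, at 0.98 ± 0.094, and MED12, at 0.89 ± 0.090. NR0B2 was lower, at -0.61 (adjusted p = 0.0089), and so was the demethylase KDM1A, at -0.59 ± 0.056.

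Between the LXR agonists at 48 h, 10 of the 53 were higher and 1 lower with GW3965, 20.8% against 8.36% of all genes. HR was higher with GW3965 by 1.13 ± 0.14 (adjusted p = 4.8e-05), and NR0B2 was lower, at -0.70 ± 0.14 (adjusted p = 0.0024). At 24 h, NR0B2 was the only one of the 53 called between them, at -1.29 (adjusted p = 0.00076).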
